A study of Mus musculus with 6 samples.

Results

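The genes described here drive the passage from G1 into S phase and the copying of DNA. There are 34 of them among the 49492 gene symbols of the deposited table, found by matching their symbols, and all 34 were among the 19284 genes abundant enough to be tested. RNA was sequenced from palatal shelves, the paired outgrowths that form the roof of the mouth, of C57BL mouse embryos at E14.5 (embryonic day). The 3 control libraries came from PRMT1 fl/fl embryos, in which loxP sites flank part of the gene on both chromosomes. The 3 deletion libraries came from Wnt1-Cre; PRMT1 fl/fl embryos, whose Cre recombinase is expressed in the neural crest. The mesenchyme of the palate descends mostly from neural crest, whereas its epithelium, muscle, vessels and blood do not, so Cre is not expected to act in those cells. No library had Cre without the loxP alleles, and separate embryos are not stated for the libraries. The tests below thus rest on the spread among libraries, which may be partly or, in the deletion group, wholly technical. Libraries are named by the start of their column names, cont212, cont213 and cont220 for controls and mut208, mut211 and mut221 for deletion, and values are listed in that order throughout.

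Cells prepare to copy DNA in G1 by loading a ring of the proteins MCM2 to MCM7 at each origin, a step called licensing that needs CDC6 and CDT1. In S phase CDC45 and the GINS complex turn the ring into a working helicase, polymerases copy the strands, and clamp, flap nuclease and ligase finish the new DNA. Many of these genes are transcribed by E2F factors when cells pass from G1 into S, and cyclin E helps to trigger that passage. The design text of the series names proliferation and cell cycle control as the processes in which changes were looked for after loss of Prmt1, the main asymmetric arginine methyltransferase.

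Libraries held 44919889 to 50022829 estimated counts. Prmt1 (chromosome 7, 44975989 to 44986568, GRCm38, minus strand) measured 258, 250 and 246 CPM (library-size-scaled counts, with TMM factors) in cont212, cont213 and cont220, and 201, 206 and 217 CPM in mut208, mut211 and mut221. Its log2 fold change was -0.27 ± 0.05 (SE; edgeR adjusted p = 0.0113), with no overlap between groups. Each count covers the whole gene, undeleted exons and cells without Cre included. All 10 palate mesenchyme markers were measured, together at 5090 to 5790 CPM among controls against 4630 to 4960 CPM after deletion, with 1 lower and 0 higher. Summed epithelial markers were 1090 to 1150 CPM among controls against 655 to 897 CPM after deletion (4 of 8 lower). Summed muscle markers were 383 to 425 and 692 to 1100 CPM (4 of 8 higher), and summed cartilage markers 219 to 356 and 604 to 699 CPM (4 of 6 higher). Erythroid, endothelial, neuronal and macrophage markers had 0 genes past the threshold, and glial markers 1 of 5, higher. Their part in the values below was not tested. In bulk RNA, fewer cells of a type and less RNA per cell cannot be told apart. The libraries cont212 and cont213 had 15.6 and 16 CPM of Xist, transcribed from the inactive X chromosome, and the other 4 libraries 3370 to 4450 CPM, so cont220 is the only control of the same sex as the deletion libraries. Summed Y-linked genes were at 249 and 255 CPM in cont212 and cont213 and 0.373 CPM in cont220. Therefore cont220 did not come from the same embryo as cont212 or cont213.

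Differences in the replication genes were small. Of the 34, 0 passed the threshold in either direction in the quasi-likelihood test of edgeR, Benjamini-Hochberg adjusted (smallest adjusted p = 0.144), where 7.01% of all tested genes passed (3.65% higher and 3.37% lower in deletion libraries). At an unadjusted p under 0.05 there were 4, 1 higher and 3 lower, or 11.8% of the 34 against 22.5% of all genes. DESeq2 and limma voom also called 0 and gave the same split at the unadjusted threshold. Groups did not overlap in 5 of the 34 (14.7%), 2 higher and 3 lower, whereas this held for 27.5% of all tested genes, 14.1% higher and 13.5% lower. The log2 fold changes ran from -0.19 to 0.21 with a median of -0.03, and the median size without regard to sign was 0.08, against 0.14 over all genes. Control means ran from 17.2 to 219 CPM for the 34 and from 0.02 to 7400 CPM over all tested genes. The comparisons with all genes, here and below, were not matched for abundance.

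The intervals come from the fit of all 6 libraries without covariates. The 95% interval of each of the 34 fold changes lay within 1.5-fold in either direction, which held for 62% of all tested genes, and for 24 of the 34 it lay within 1.2-fold (31.1% of all tested genes). Each interval stands alone and is not adjusted for the number of genes. With embryo sex as a covariate 4 estimates lay below their intervals, at -0.37 for Exo1, -0.28 for Rrm1, -0.25 for Dtl and -0.22 for Rrm2, so the intervals do not cover the choice of controls. The median half-width was 0.16 on the log2 scale for the 34 and 0.24 over all genes, and the median biological coefficient of variation was 7.61% and 10.4%. Abundance was not matched in these comparisons, and all tested genes included far lower counts. The plot of fold changes with their intervals shows the genes by role.

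**Figure D1:**
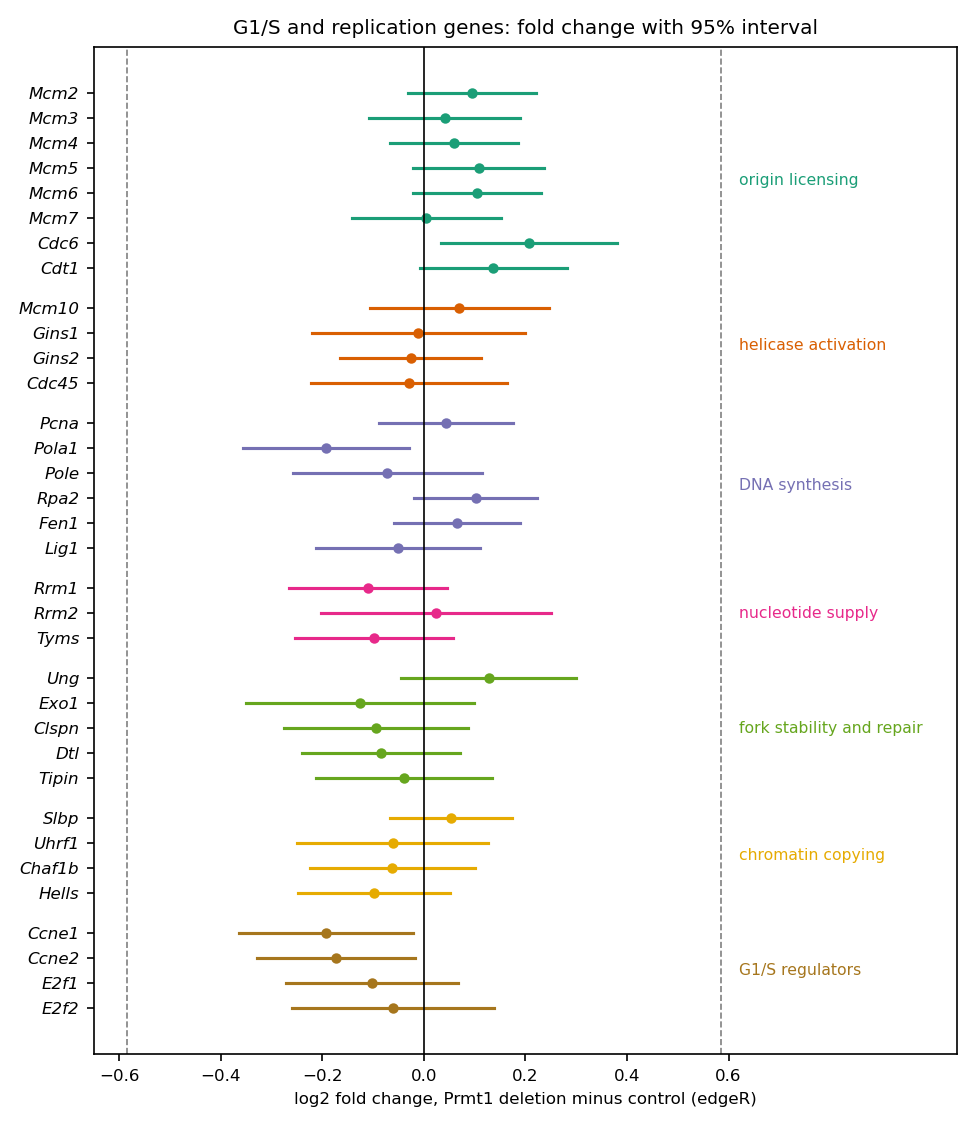
Log2 fold change (Prmt1 deletion minus control, edgeR) of each of the 34 genes with its 95% interval, coloured by role. Dashed lines mark 1.5-fold either way. All 34 intervals lie between them, all 8 licensing genes lie above 0 and all 4 G1/S regulators below 0.

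The 8 licensing genes were the only role group whose fold changes all lay above 0, from 0.00 for Mcm7 to 0.21 for Cdc6, with a median of 0.10 and 0 past the threshold. Cdc6 (chromosome 11, 98907801 to 98923940, GRCm38), the loader of the helicase ring, measured 28.6, 28.9 and 30.8 CPM in cont212, cont213 and cont220, and 35.9, 35.5 and 30.6 CPM in mut208, mut211 and mut221. The libraries mut208 and mut211 were above every control and mut221 was within the control range. Its log2 fold change was 0.21 ± 0.08 (SE; edgeR adjusted p = 0.144), the highest of the 34. Leaving out mut221 gave 0.28 and brought Cdc6 past the threshold (edgeR adjusted p = 0.0374), the single instance in which any of the 34 genes was called in any alternative.

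Cdt1, the partner of CDC6 in loading, measured 44.3, 40.0 and 42.3 CPM among controls against 44.1, 46.4 and 48.6 CPM after deletion, so that 1 deletion library, mut208, lay within the control range (log2 fold change 0.14 ± 0.07 SE, edgeR adjusted p = 0.253). Mcm6 (chromosome 1, 128331590 to 128359664, GRCm38, minus strand), a subunit of the ring, did not overlap between groups, at 223.5, 219.6 and 212.7 CPM among controls against 226.5, 252 and 226.6 CPM after deletion. The distance between mut208 and cont212 was small, and the log2 fold change was 0.10 ± 0.06 (SE; edgeR adjusted p = 0.318), or 0.05 without mut211. Mcm5, another subunit, measured 154, 160 and 175 CPM among controls against 180, 177 and 170 CPM after deletion, with cont220 above mut221 (log2 fold change 0.11 ± 0.06 SE, edgeR adjusted p = 0.310). With sex as a covariate the fold change of Mcm5 was 0.01.

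Mcm2 and Mcm4 repeated this arrangement, with cont212 and cont213 below all deletion libraries and cont220 level with the highest. Mcm2 was at 148, 148 and 166 CPM among controls against 165, 163 and 166 CPM after deletion. Mcm4 was at 165, 173 and 187 CPM, and at 180, 179 and 187 CPM. The other ring subunits, Mcm3 and Mcm7, overlapped widely, with control means of 145 ± 9.3 and 153 ± 11.5 CPM and deletion means of 149 ± 11.4 and 154 ± 9.9 CPM (SD, n = 3 each). For Mcm7 the 95% interval of the log2 fold change was -0.14 to 0.15. The microRNAs Mir25 and Mir93 lie within exons of Mcm7 on its own strand, and 7.25% of its exon bases are shared with Ap4m1 on the other strand.

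The promoters of these genes were searched for letters that E2F factors are known to bind. RefSeq promoter windows (250 bases before to 50 after the start, GRCm38.p6) were matched by symbol for 27 of the 34, and not for Gins1, Pole, Exo1, Mcm4, Tipin, Gins2 and Ccne2. The E2F motifs TTTCCCGC and TTTGGCGC, searched on both strands, occurred in 10 of these 27 (37%), in 3.09% of the 12480 tested genes with a window and in 1.8% of all 27025 genes with one. In the bases before the start alone the motifs occurred in 7 of 27 (25.9%) and in 2.6% of tested genes. The 10 were 6 of 7 licensing genes (Mcm3, Mcm5, Mcm6, Mcm7, Cdc6 and Cdt1) and 4 of 20 others (Pola1, E2f2, Dtl and Hells). In Mcm3, Cdt1 and E2f2 the matches lay only after the start, so the contrast is smaller before it. The motif CCAAT, on either strand, occurred in 17 of 27 (63%) against 42% of tested genes. Of the 12 E2F matches, 0 shared a base with a CCAAT match. A match is a description of letters, not of binding.

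The 4 promoters below show the motif in capitals, 5′ to 3′ on the strand of the gene and ending at the base before the RefSeq start, in GRCm38.p6. Mcm6 (chr1:128359706-128359825, minus strand) holds 2 copies of the motif, and Cdc6 (chr11:98907982-98908150, plus strand), Pola1 (chrX:93632156-93632325, minus strand) and Dtl (chr1:191575545-191575635, minus strand) hold 1 each, which in Dtl ends at the start. The Cdc6 stretch lies in no annotated exon but downstream of the first start that GENCODE gives the gene, and the Dtl stretch stops where the gene Ints7 begins on the other strand. Mcm6, Pola1 and Dtl are shown as the motif-bearing genes of highest level per kilobase in their role groups, and Cdc6, added after its values were seen, for the highest fold change of the 34.
Mcm6: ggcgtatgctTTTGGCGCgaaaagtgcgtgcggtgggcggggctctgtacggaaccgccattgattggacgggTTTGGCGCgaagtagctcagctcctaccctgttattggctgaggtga
Cdc6: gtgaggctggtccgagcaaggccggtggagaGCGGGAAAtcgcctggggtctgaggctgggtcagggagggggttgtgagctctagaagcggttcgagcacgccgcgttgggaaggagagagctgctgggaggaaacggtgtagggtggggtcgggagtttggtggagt
Pola1: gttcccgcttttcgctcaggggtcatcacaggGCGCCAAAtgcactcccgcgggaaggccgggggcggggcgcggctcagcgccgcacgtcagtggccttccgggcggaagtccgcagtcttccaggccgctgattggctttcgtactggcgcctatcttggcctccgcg
Dtl: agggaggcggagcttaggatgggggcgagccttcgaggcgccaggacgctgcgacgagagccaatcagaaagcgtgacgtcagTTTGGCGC

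Genes that activate the helicase had the smallest median difference of the role groups, 0.03 without regard to sign. Mcm10, Gins1, Gins2 and Cdc45 had log2 fold changes of -0.03 to 0.07, and the 95% interval of each lay within 1.2-fold. In Cdc45, which joins the ring at the start of S phase, the controls measured 26.2, 27.2 and 32.0 CPM and the deletion libraries 27.1, 26.8 and 29.8 CPM. The libraries cont220 and mut221 were the highest of their groups in Cdc45, Gins1, Gins2 and Mcm10. The value of Gins2 is uncertain, because 67.3% of its exon bases are also exon of Gse1 on the other strand and the strand setting of the counting is not given in the sources used here.

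Among 6 genes of DNA synthesis, 3 lay above and 3 below 0. Pola1 (chromosome X, 93304767 to 93632155, GRCm38, minus strand), the catalytic subunit of the polymerase that starts each new strand, measured 57.0, 54.1 and 65.8 CPM among controls against 51.8, 50.1 and 52.8 CPM after deletion. Every deletion library was below every control, both the controls of the other sex and cont220. The log2 fold change was -0.19 ± 0.07 (SE; edgeR adjusted p = 0.151). It was -0.11 without cont220 and -0.35 with sex as a covariate (edgeR adjusted p = 0.376 and 0.0829). Rpa2, a subunit of the protein that coats single strands, did not overlap in the other direction, at 58.5, 58.6 and 62.9 CPM among controls against 63.3, 64.4 and 65.5 CPM after deletion (log2 fold change 0.10 ± 0.05 SE, edgeR adjusted p = 0.307). The library cont220 lay just under the lowest deletion library.

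Pcna, the sliding clamp that holds polymerases on DNA, measured 178, 175 and 199 CPM among controls against 190, 184 and 195 CPM after deletion. The groups overlapped, with a 95% interval for the log2 fold change of -0.09 to 0.18. The table also lists the pseudogene copy Pcna-ps2, with up to 37.4% as many counts as Pcna in a library, so part of the reads may have been divided between these rows. Pole, the leading-strand polymerase, and Lig1, the ligase that joins Okazaki fragments, were both highest in cont220, at 94.5 and 129 CPM. Their log2 fold changes were -0.07 and -0.05. Fen1, the flap nuclease, differed by 0.07, and 78.8% of its exon bases lie opposite the antisense gene Gm10143, which was at 4.04 ± 1.07 CPM among controls and 4.29 ± 0.03 CPM after deletion (SD, n = 3 each).

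The 3 genes of nucleotide supply had their mean farthest above the other libraries in cont220, at 0.22 (log2) over the 6-library mean. Rrm2, the regulated subunit of ribonucleotide reductase, measured 101, 103 and 133 CPM in cont212, cont213 and cont220 and 112, 114 and 116 CPM after deletion. The deletion libraries thus lay between 2 low controls and 1 high control. The log2 fold change was 0.02 over all 6 libraries, 0.16 without cont220 and -0.22 with embryo sex as a covariate, and none of these passed (edgeR adjusted p = 0.925, 0.107 and 0.169). Rrm1, the large subunit of the same enzyme, was at 201, 199 and 240 CPM among controls against 198, 200 and 195 CPM after deletion. Tyms, which makes thymidylate, was at 68.9, 64.3 and 78.5 CPM, and at 65.03, 66.3 and 66.5 CPM. In both, 5 libraries lay close together and cont220 was above them.

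Of 5 genes of fork stability and repair, 4 had their highest value in cont220. Exo1, a nuclease of mismatch repair and of resection at broken ends, measured 36.9, 36.7 and 48.1 CPM among controls against 38.3, 37.8 and 35.4 CPM after deletion. Its log2 fold change of -0.13 (edgeR adjusted p = 0.528) became 0.01 without cont220. Clspn, the checkpoint adaptor claspin, Tipin, the partner of Timeless at the fork, and Dtl, which directs destruction of CDT1 in S phase, were likewise highest in cont220, with log2 fold changes of -0.09, -0.04 and -0.08. Ung, which removes uracil from DNA, departed from them, at 27.3, 25.9 and 29.8 CPM among controls against 30.0, 28.5 and 32.1 CPM after deletion (log2 fold change 0.13 ± 0.08 SE, edgeR adjusted p = 0.380).

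Of the 4 genes of chromatin copying, 3 measured lower and 1 higher, with log2 fold changes of -0.10 to 0.05. Uhrf1, which brings the maintenance methyltransferase to new DNA, measured 154, 172 and 197 CPM among controls against 158, 165 and 178 CPM after deletion. The library cont212 was the lowest and cont220 the highest of all 6. Hells, a remodelling helicase, and Chaf1b, a subunit of the histone chaperone CAF-1, had log2 fold changes of -0.10 and -0.06. Slbp, which binds the stem-loop of histone messenger RNA, was at 104, 108 and 112 CPM among controls against 118, 111 and 107 CPM after deletion, and the groups overlapped.

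The G1/S regulators measured lower in the deletion libraries, all 4 with log2 fold changes below 0 (median -0.14) and 0 past the threshold. Without cont220, 3 lay below and 1 above 0 (median -0.08), and with sex as a covariate all 4 lay below (median -0.21). Ccne1 (chromosome 7, 38097984 to 38107534, GRCm38, minus strand), encoding cyclin E1, measured 45.1, 46.1 and 42.0 CPM among controls against 40.0, 41.8 and 34.7 CPM after deletion. The groups did not overlap, although mut211 lay just under cont220. The log2 fold change was -0.19 ± 0.08 (SE; edgeR adjusted p = 0.172). It was -0.12 without mut221 and -0.11 with sex as a covariate, both over 1.5 times smaller.

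Ccne2 (chromosome 4, 11191351 to 11204779, GRCm38), encoding cyclin E2, measured 36.7, 35.9 and 38.2 CPM among controls against 32.2, 35.3 and 30.8 CPM after deletion, again without overlap. Its log2 fold change was -0.17 ± 0.07 (SE; edgeR adjusted p = 0.174), and 17.4% of its exon bases are shared with Ints8 on the other strand. E2f1 and E2f2, activators of S-phase genes, had log2 fold changes of -0.10 and -0.06, with cont220 highest in both, at 54.9 and 20.6 CPM. Deletion values were 45.1, 45.0 and 47.8 CPM for E2f1 and 18.7, 17.6 and 17.2 CPM for E2f2, close to those of cont212 and cont213 (44.9 and 48.3 CPM, 17.3 and 17.9 CPM). Without cont220 the fold changes were -0.02 for E2f1 and 0.02 for E2f2.

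**Figure D2:**
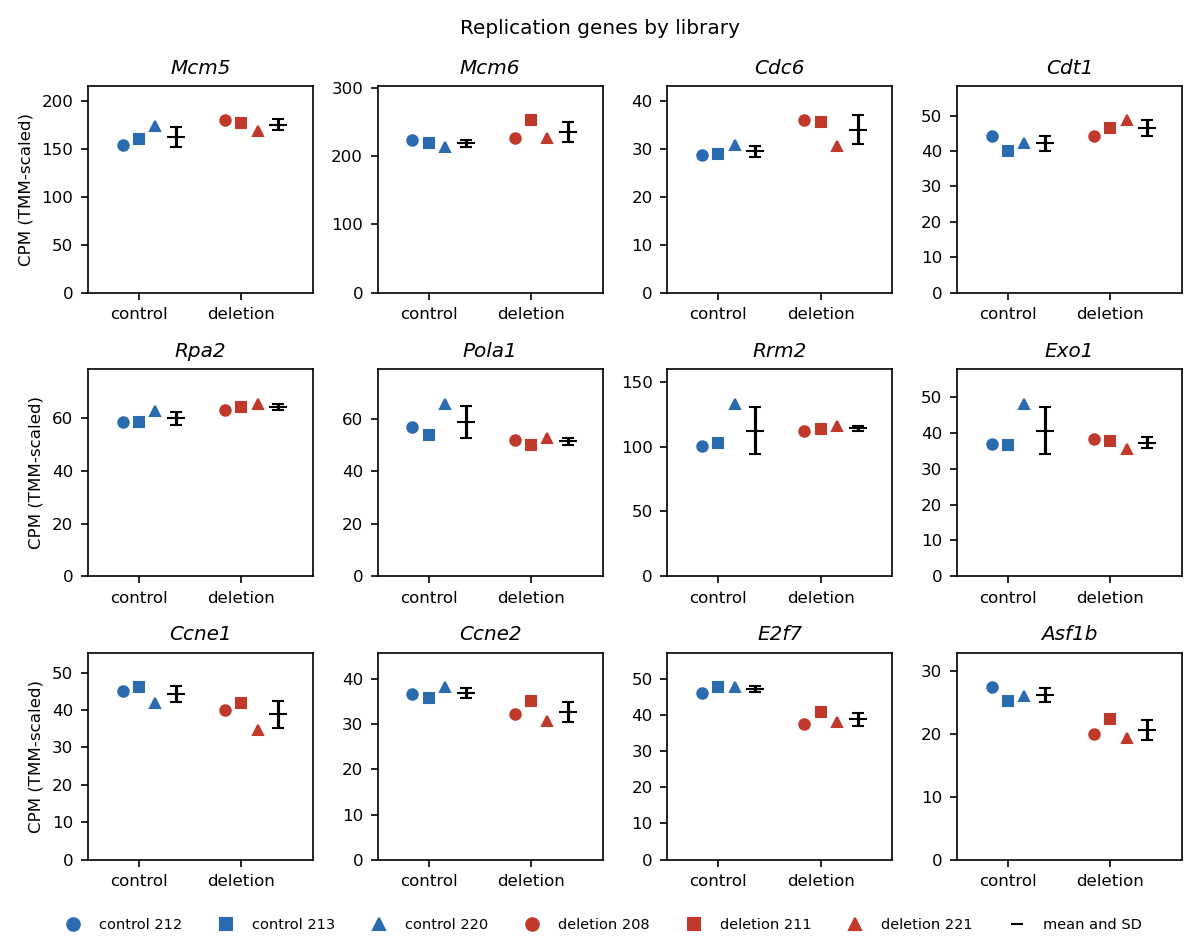
CPM (TMM-scaled) of 10 of the replication genes and of E2f7 and Asf1b, with axes from 0. Each point is 1 library (controls blue, deletion red), with the mean and SD of each group as bars. Mcm6, Rpa2, Pola1, Ccne1, Ccne2, E2f7 and Asf1b do not overlap between groups, and cont220 is highest in Pola1, Rrm2, Exo1 and Ccne2.

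The controls differed among themselves in most of these genes. Of the 34 genes, 20 had their highest value in cont220 (58.8%), where 16.4% of all tested genes did, and 12 and 8 had their lowest value in cont212 and cont213 (35.3% and 23.5%, against 16.4% and 15.5% of all genes). The mean of the genes' deviations from their own 6-library means was 0.12 (log2) in cont220 and -0.06 and -0.05 in cont212 and cont213. The 3 deletion libraries lay between them, from -0.01 to 0.00. The library cont220 was above all 3 deletion libraries in 21 of the 34 genes and below all 3 in 3, while cont212 was above in 6 and below in 16, and cont213 above in 5 and below in 15. Over all tested genes each of these shares was 29.9% to 30.6%. Mki67, a marker of cycling cells, ordered the controls the same way, at 566, 631 and 731 CPM in cont212, cont213 and cont220, and was at 603, 640 and 595 CPM after deletion (log2 fold change -0.07, edgeR adjusted p = 0.698).

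The direction of the 34 genes as a whole depended on the controls used. Without cont220 their median log2 fold change was 0.05, with 24 above 0 and 10 below. With embryo sex as a covariate, which sets the deletion libraries against cont220 alone, the median was -0.15, with 8 above 0, 26 below and 14 lower at an unadjusted p under 0.05 (41.2%, against 7.16% of all tested genes in that fit). That contrast rests on 1 control library, whose spread is taken from the other libraries, so a high value of cont220 alone and a difference between groups cannot be told apart in it. In neither setting did any gene pass after adjustment (smallest edgeR adjusted p = 0.107 for Rrm2 and 0.0829 for Pola1).

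**Figure D3:**
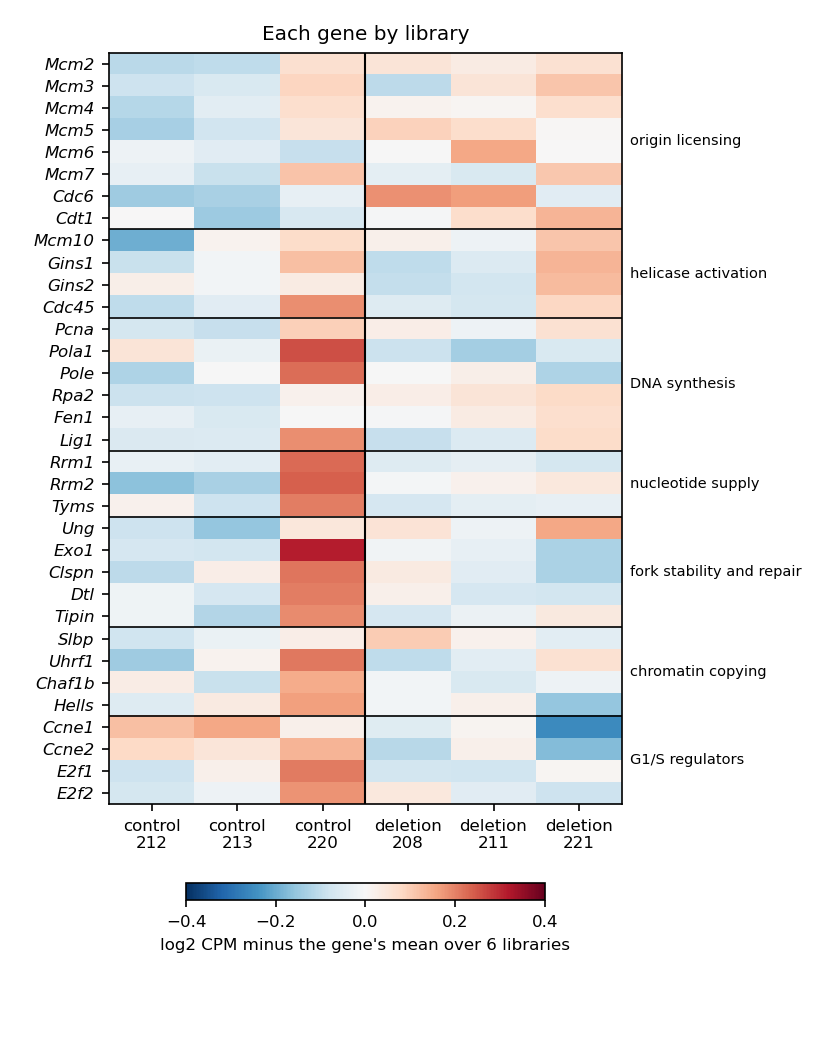
Log2 CPM of each of the 34 genes minus its mean over the 6 libraries, red above and blue below that mean, with genes by role and libraries by group. The column of cont220 is red in most rows. Within licensing it is red in Mcm2, Mcm3, Mcm4, Mcm5 and Mcm7 and not in Mcm6, Cdc6 and Cdt1. Cdc6 is highest in mut208 and mut211.

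Relative to the other 26 genes, licensing genes lay higher in each deletion library than in any control. Their mean deviation was -0.08, -0.09 and 0.02 in cont212, cont213 and cont220 and 0.02, 0.06 and 0.06 in mut208, mut211 and mut221. The same mean over the 26 was then subtracted within each library, for licensing alone. In these same libraries all 8 licensing fold changes lay above 0 and 19 of the 26 others below, so the direction of the result was fixed beforehand. The difference was -0.03, -0.05 and -0.13 in the controls and 0.05, 0.09 and 0.07 in the deletion libraries, and the groups did not overlap. Before subtraction the licensing means were nearly level at the margin, at 0.0239 in cont220 and 0.0243 in mut208. Separation was not particular to licensing. The mean of the 4 G1/S regulators, which are among the 26, separated without subtraction. It was 0.01 to 0.14 in the controls and -0.13 to -0.02 in the deletion libraries. The other role groups overlapped. How often means of this many genes separate was not tested. Of the 26 others 7 had fold changes above 0 and 19 below, and without cont220 this turned to 16 above and 10 below (median 0.02). All 8 licensing genes stayed above 0 without cont220, mut208 or mut211, 7 did without cont212 or cont213, 6 without mut221 and 4 with sex as a covariate, where the medians were near 0 for licensing and -0.21 for the others. These are descriptions of 34 related genes in 6 libraries, with no test over the group.

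**Figure D4:**
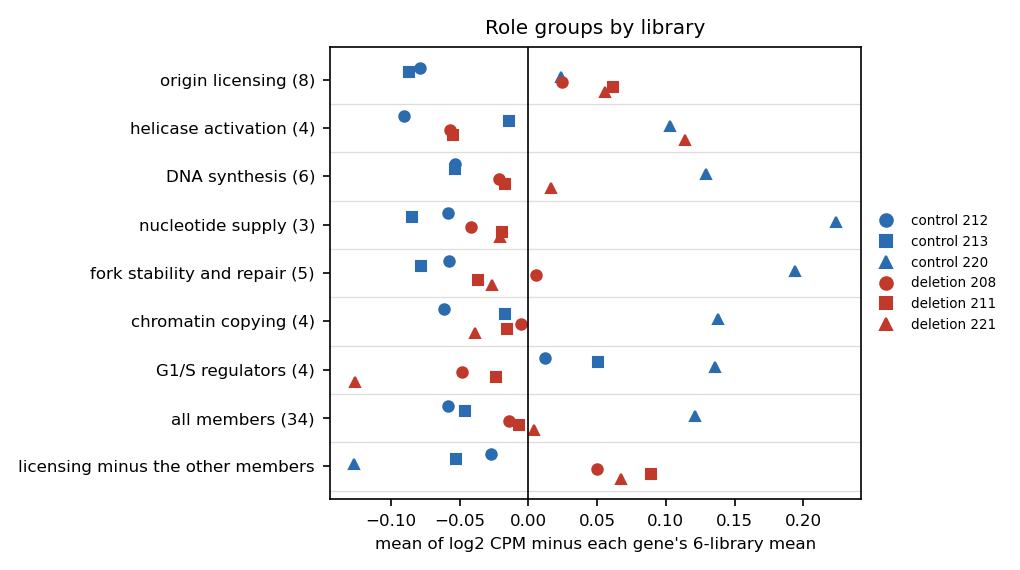
Mean of log2 CPM minus each gene's 6-library mean, for each role group (number of genes in brackets), for all 34 genes, and for licensing minus the others. Each point is 1 library (controls blue, deletion red). The library cont220 is highest in 5 of 7 role groups, and in the bottom row the 3 deletion libraries lie at 0.05 to 0.09 and the controls at -0.13 to -0.03. The G1/S regulators also separate, with the deletion libraries below the controls.

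Outside the 34, another 70 genes of replication and S phase were examined, and 2 fell and 0 rose (2.86%, against 7.01% of all tested genes in either direction and 3.37% lower). E2f7 (chromosome 10, 110745439 to 110787384, GRCm38), an E2F factor that represses transcription, went from 46.2, 47.6 and 47.6 CPM among controls to 37.4, 40.9 and 38.0 CPM after deletion, a log2 difference of -0.28 ± 0.06 (SE; edgeR adjusted p = 0.0204). Asf1b (chromosome 8, 83955507 to 83970197, GRCm38), a histone chaperone of dividing cells, went from 27.5, 25.3 and 26.1 to 20.0, 22.4 and 19.5 CPM, a log2 difference of -0.35 ± 0.08 (SE; edgeR adjusted p = 0.0251). The library cont220 lay among the other controls in both, unlike in most of the 34 genes, and with sex as a covariate the fold changes were -0.30 and -0.34 without passing (edgeR adjusted p = 0.162 and 0.22). Without cont213 or mut208 neither passed, and without cont212 Asf1b did not (edgeR adjusted p = 0.0798 to 0.11 where lost).

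The 70 genes had a median log2 fold change of -0.03 with 25 above 0 and 45 below. The groups did not overlap in 14 of the 70 (20%, against 27.5% of all tested genes), 7 in each direction. Cdc7, the kinase that fires licensed origins, and Nasp, a histone chaperone, are named here after their values were seen. Cdc7 measured 61.6, 66.2 and 74.5 CPM among controls against 84.5, 82.2 and 74.1 CPM after deletion (log2 fold change 0.25 ± 0.08 SE, edgeR adjusted p = 0.0734), with cont220 just above mut221. It passed with DESeq2 (adjusted p = 0.0368), without the filter on low counts, without cont220 and without mut221. Nasp measured 343, 341 and 409 CPM among controls against 427, 406 and 403 CPM after deletion and, of the settings tried, passed without cont220 alone (log2 fold change 0.27, edgeR adjusted p = 0.0217).

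Levels of different genes were compared per kilobase of exon. Pcna was the most abundant of the 34 in controls, at 76.8 ± 5.5 CPM per kilobase (SD, n = 3), and did not overlap with any other gene. Mcm4, Mcm6, Uhrf1, Mcm5, Rrm2, Mcm3 and Mcm7 followed, from 48.7 ± 3.13 down to 34.7 ± 2.59 CPM per kilobase, and the control values of neighbours in that order overlapped. The lowest were Exo1 (4.82 ± 0.77), Mcm10 (4.69 ± 0.45) and E2f2 (3.81 ± 0.36 CPM per kilobase), 20.2-fold below Pcna at the end of the order, or 30.8-fold by the longest transcript. Both cyclin E genes lay in the middle, Ccne1 at 16.7 ± 0.8 and Ccne2 at 10.6 ± 0.33 CPM per kilobase.

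The 6 ring subunits, which join in equal numbers in the protein complex, spanned 22.2 (Mcm2) to 48.7 CPM per kilobase (Mcm4) by the union of all annotated exons, a 2.19-fold range. By the length of each gene's longest transcript they spanned 42.3 (Mcm3) to 51.8 CPM per kilobase (Mcm7), a 1.22-fold range. The length of Mcm2 was 6956 bases by the union of exons, against 3494 for its longest transcript. Pcna stayed first and E2f2 last by either length, and the ring subunits were within the first 9 places by the second.

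**Figure D5:**
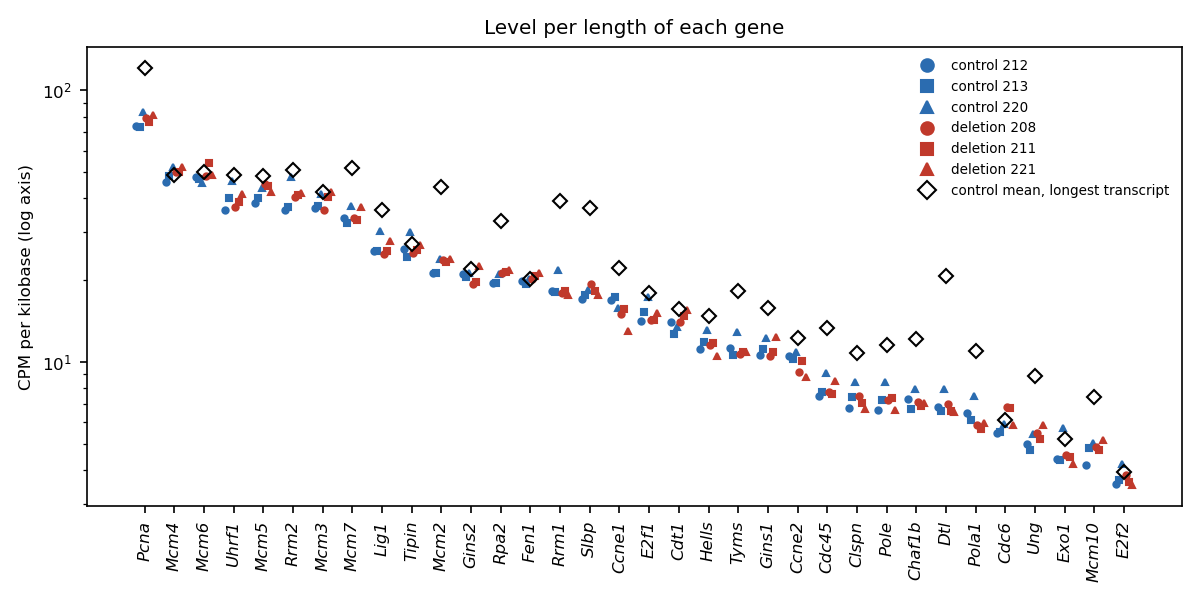
CPM per kilobase (log axis) of the 34 genes in each library, by the union of exons, in the order of their control means. Each point is 1 library (controls blue, deletion red), and open diamonds give the control mean by the longest transcript. Pcna is highest and E2f2 lowest by either length, and Pcna stands apart from the next gene in every library.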

How the data were processed

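The authors deposited a table of estimated counts (expected counts, not normalized), with 23.0% to 23.8% of values not whole. The submitters' processing notes list STAR 2.4.1d, CASAVA 1.8.2, Partek and build mm10. What each did, which annotation was used, and whether counting used strand: not given in the sources used here. Columns show a group but no replicate number.

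Counts were rounded. Genes kept by filterByExpr (minimum count 10, minimum total 15; 19284 genes) were scaled by TMM and tested with edgeR 4.0.16 (glmQLFit with robust=TRUE, glmQLFTest; R 4.3.3), deletion against control, 3 libraries each. Adjustment was by Benjamini-Hochberg over all genes, with a threshold of 0.05. The test was also run on simulated counts, drawn independently for each gene and without a sex effect. That run therefore does not bear on the differences among the controls described above. An SE was obtained as the log2 fold change over the root of its F statistic. Libraries within a group differed by more than sampling noise (chi-square over its degrees of freedom, 7.41 to 35.2). Intervals are at 95% and cover the spread between these libraries. Positions and exon lengths come from GENCODE M21 (GRCm38, the assembly of mm10), and promoters from RefSeq (GRCm38.p6). Promoters printed were, per role group, the gene of highest level per kilobase with a motif before the start, clear of annotated exons. Pola1 and Dtl were the only motif-bearing genes of their role groups. Hells, with a match from -62, did not meet the rule on exons, and Cdc6 was added outside the rule. All 34 genes were to be named whatever their result, with Prmt1, Mki67 and, of the 70 other replication genes, those past the threshold. Genes, roles and lists were chosen with earlier results of these data known. Alternatives were DESeq2 1.42.0 (size factors, Wald test), limma 3.58.1 voom, other filters, robust=FALSE, sex as a covariate and leaving libraries out.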

Additional observations from a re-analysis of the deposited data

How the results depend on the processing

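Of 476 fold changes of single genes of the 34 under alternatives, 428 moved by less than 1 SD between libraries, 47 by more without a call and 1 passed (Cdc6, above). All 47 arose with sex as a covariate or without cont212 and cont213, where the deletion libraries were set against cont220 alone. Leaving out 1 of 3 libraries can hardly shift a fold change by 1 SD, so the 428 are no measure of stability there. Without cont220, 9 of the 34 changed sign. The 34 genes had 0 calls throughout, except for 1 without mut221. Leaving out 1 library gave 0 to 1 calls among the 34, a median log2 fold change of -0.06 to 0.05, 356 to 1872 calls over all genes (1352 with all libraries) and 0 to 4 among the other 70 replication genes (2 with all libraries). Calls over all genes were 356 without cont213, 545 without mut208 and 711 without mut211. Calls among the 70 were 0 without cont213 or mut208, 1 without cont212 and 4 without cont220. With sex as a covariate these were 0, a median of -0.15, 129 and 0. Leaving out cont212 and cont213, which is the same contrast, gave 0, a median of -0.15, 89 and 0. The DESeq2 Wald test called 2075 genes in all and 3 of the other 70. Without the filter on low counts, 3 of the 70 were called. By the longest transcript the range of the 6 ring subunits was 1.22-fold, against 2.19-fold, because the lengths differ by construction. For the other settings the cause was not tested. With 3 libraries a group, a difference under a gene's own interval half-width did not reach an unadjusted p of 0.05 in edgeR. A call after adjustment needed a larger difference. The intervals of Cdc6, Pola1, Ccne1 and Ccne2 left out 0, and none of these genes passed with all libraries. No paired analysis was possible because the columns carry none of the replicate numbers of the titles.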
